A study of Mus musculus with 12 samples.

Results

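Transcripts of 9 mitogen-activated protein (MAP) kinase genes were followed in the mouse cochlea: the ERK genes Mapk3 and Mapk7, the JNK genes Mapk8, Mapk9 and Mapk10, and the p38 genes Mapk11, Mapk12, Mapk13 and Mapk14. They were taken by gene symbol and make up 9 of 23949 genes read. RNA of whole cochleae was sequenced in 12 libraries of 4 groups, with 3 libraries per group: Dusp1-/- mice (KO) at 5 months (E7, F18 and F19), Dusp1+/+ mice (WT) at 5 months (E1, E3 and E4), KO at 8 months (F5, F6 and F27) and WT at 8 months (F1, F10 and F12). All mice had the mixed 129S2/SvPas:C57BL/6 background, and no treatment was labelled. Ages are in months as labelled, whereas the methods give them in weeks. The meaning of the letters E and F in the library codes, and whether a library is 1 animal, is not known from the labels or methods. The p-values below therefore measure the spread between these libraries. The 3 WT libraries of 5 months are all E and the 6 libraries of 8 months are all F.

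MAP kinases are the last step of a cascade in which a MAP kinase kinase kinase activates a MAP kinase kinase, which in turn phosphorylates a threonine and a tyrosine of the MAP kinase. ERK kinases respond mainly to growth factors, whereas JNK and p38 kinases respond to stress and inflammatory cytokines and are known in the inner ear for their part in the response to noise and ototoxic drugs. DUSP1 is a nuclear phosphatase that removes both phosphates and so turns MAP kinases off, with a preference for p38 and JNK. The data are RNA levels and hold no measure of phosphorylation or kinase activity.

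The site on which the kinases and DUSP1 act is written in the coding sequence of the activation segment, shown here because it sorts the 9 genes into their subfamilies. Each sequence runs 5′ to 3′ from the Asp-Phe-Gly codons to the Ala-Pro-Glu codons of the GENCODE transcript, equals the NCBIM37 (mm9) genome, and lies within a single exon. Capitals mark the codons of the phosphorylated threonine, the residue between, and the phosphorylated tyrosine.
Mapk3: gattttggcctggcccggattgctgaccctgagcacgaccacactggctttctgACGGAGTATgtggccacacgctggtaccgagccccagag
Mapk7: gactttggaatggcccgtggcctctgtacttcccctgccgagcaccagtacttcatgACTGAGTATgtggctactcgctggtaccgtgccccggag
Mapk8: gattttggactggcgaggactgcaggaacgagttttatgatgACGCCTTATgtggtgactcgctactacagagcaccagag
Mapk9: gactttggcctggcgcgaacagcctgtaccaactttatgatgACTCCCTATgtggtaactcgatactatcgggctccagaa
Mapk10: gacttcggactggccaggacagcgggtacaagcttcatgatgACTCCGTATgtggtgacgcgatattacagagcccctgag
Mapk11: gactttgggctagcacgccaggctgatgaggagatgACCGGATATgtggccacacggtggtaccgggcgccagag
Mapk12: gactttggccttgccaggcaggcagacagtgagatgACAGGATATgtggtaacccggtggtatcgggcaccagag
Mapk13: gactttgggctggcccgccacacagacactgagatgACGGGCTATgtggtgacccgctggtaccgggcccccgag
Mapk14: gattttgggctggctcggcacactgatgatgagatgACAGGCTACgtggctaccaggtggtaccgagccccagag

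The capitals read Thr-Glu-Tyr in Mapk3 (chr7:133906972-133906980) and Mapk7 (chr11:61304924-61304932). They read Thr-Pro-Tyr in Mapk8 (chr14:34206189-34206197), Mapk9 (chr11:49686332-49686340) and Mapk10 (chr5:103418700-103418708). In the 4 p38 genes they read Thr-Gly-Tyr: Mapk11 (chr15:88976296-88976304), Mapk12 (chr15:88965106-88965114), Mapk13 (chr17:28913289-28913297) and Mapk14 (chr17:28865344-28865352). The segment is 31 codons long in Mapk3 and 32 in Mapk7, 27 in each JNK gene and 25 in each p38 gene. It is carried by 4 of 5 coding transcripts of Mapk7 and 6 of 7 of Mapk9, and by every coding transcript of the other genes. Within a subfamily the segments were identical at 75.3 to 80.2% of 81 bases (JNK) and 74.7 to 81.3% of 75 bases (p38). Despite this likeness no window of 50 bases, the read length, was shared between transcripts of any 2 of the 9 genes. Mapk7 alone shared such windows with the coding transcript of another gene, 40 of its 3571 with Mfap4, counted in either orientation.

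The genes lie on 6 chromosomes of mm9, and none overlaps another gene of the deposited annotation. Mapk3 is at chr7:133903140-133909330, Mapk7 at chr11:61302314-61307768, Mapk9 at chr11:49660253-49699923, Mapk8 at chr14:34191084-34260344 and Mapk10, the longest at 303 kb, at chr5:103336967-103640353. Mapk12 (chr15:88961014-88971133) and Mapk11 (chr15:88972914-88980036) are neighbours on the same strand with 1.78 kb between them. Mapk14 (chr17:28828287-28885350) and Mapk13 (chr17:28906262-28915649) are likewise neighbours, with 20.9 kb between them, and lie 2.18 and 2.26 Mb from the targeted gene Dusp1 (chr17:26642536-26645417). In mice of mixed background, alleles linked to the targeted Dusp1 copy and the loss of DUSP1 cannot be told apart for these 2 genes.

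The number of reads per library is unknown. FPKM, fragments per kilobase of transcript scaled to the mapped reads of the library, are per length, so that levels of different genes can be set side by side. They added up to 501193 to 583700 per library. Over 146 to 180 low genes per library, the median level was 0.871 to 1.03 times that in E1. Only genes whose level lay near that in E1 entered this median, so it cannot show whether the libraries were of similar depth. Markers of cochlear cells (Otog, Tecta, Kcnq1, Gjb2, Myo7a, Otof and 6 others) were measured in every group, with summed levels of 2604 to 4002 FPKM. Among the marker lists the libraries differed most in that of neutrophils: the 11 markers summed to 22710, 4094 and 7258 FPKM in E7, F18 and F19 and to 612, 676 and 70.2 FPKM in E1, E3 and E4. At 8 months the sums were 16564, 891 and 1262 FPKM in F5, F6 and F27 and 923, 683 and 4576 FPKM in F1, F10 and F12. Xist was at 1 FPKM or more in 4 libraries (E4, F6, F27 and F1), so sex was not balanced between the groups.

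Dusp1 RNA itself was not lower in the libraries labelled KO. It measured 61.9, 81.5 and 75.3 FPKM in KO and 60.8, 47.6 and 29.5 FPKM in WT at 5 months, and 55.6, 73.7 and 57.1 FPKM in KO and 43.0, 38.3 and 38.6 FPKM in WT at 8 months. The FPKM of a whole gene do not show whether a transcript carries the disrupted allele, so the directions below rest on the labels.

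All 9 genes were detected in every library, over a wide range of levels. Mapk3, which encodes ERK1, was the most abundant, with a mean of 176 FPKM over the 12 libraries (range 143 to 216), and only 2.66% of the 16277 genes tested had a higher mean. Its lowest library was above the highest library of every other member. Mapk14 (p38α, mean 30.8 FPKM, range 26.9 to 43.9), Mapk9 (JNK2, 28.7, 24.3 to 36.6), Mapk10 (JNK3, 21.0, 16.7 to 25.5) and Mapk12 (p38γ, 19.5, 16.2 to 23.3) followed, each overlapping its neighbour in this order. A step without overlap separated Mapk12 from Mapk13 (p38δ, 9.21, 6.10 to 14.2). Mapk13, Mapk7 (ERK5, 9.02, 7.59 to 10.99), Mapk8 (JNK1, 8.37, 7.12 to 10.3) and Mapk11 (p38β, 6.70, 5.09 to 8.92) again overlapped one after another. Of the genes tested, 62.5% had a higher mean than Mapk11, the lowest member.

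The spread between libraries of a group differed among the members. On the log2 scale its SD was 0.10 for Mapk8 and 0.11 to 0.13 for Mapk10, Mapk9, Mapk3 and Mapk12, close to or below the median of 0.15 over all genes. It was largest for Mapk14 (0.22), Mapk11 (0.25) and Mapk13 (0.26), where 68.8 to 75.3% of the genes tested had a smaller one.

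**Figure D1:**
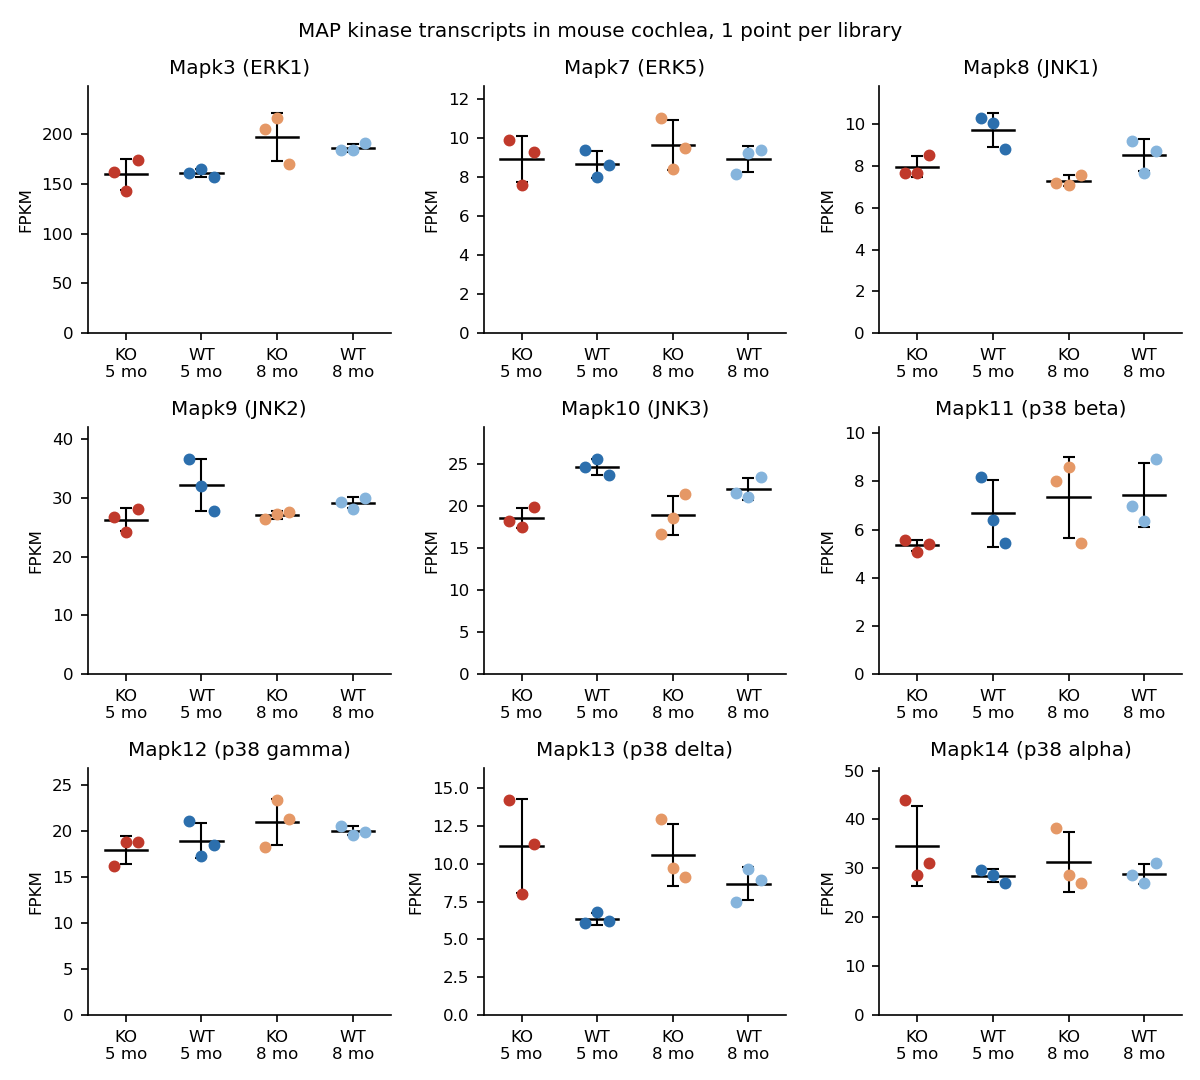
FPKM (vertical axis, from 0) of the 9 MAP kinase genes in the 4 groups (horizontal axis), with 1 point per library; lines and bars are the mean and SD of 3 libraries. The 3 KO points lie below the 3 WT points at both ages for Mapk8, and above them at 5 months for Mapk13, where KO libraries measured 8.00 to 14.2 FPKM and WT libraries 6.10 to 6.82 FPKM.

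For the comparison of genotypes, the 16277 genes that averaged 0.5 FPKM or more, the 9 members among them, entered a limma fit of the 4 groups as log2(FPKM + 0.5). Changes below are log2 of KO over WT with their standard error, and p was adjusted over all genes tested by Benjamini and Hochberg. None of the 9 genes passed an adjusted p of 0.05 in any comparison. At 5 months 1 member was higher and 3 were lower in KO at an unadjusted p under 0.05, where 8.23% of all genes were higher and 9.92% lower by the same rule, and 0.0676% of all genes passed the adjusted threshold. At 8 months 0 were higher and 2 were lower, against 2.21 and 2.97% of all genes, and 0.0123% passed the adjusted threshold. For the mean of both ages the counts were again 1 and 3, against 7.75 and 9.66%, and 0.0799% passed. The median change of the members was -0.08 at 5 months, 0.06 at 8 months and -0.01 for the mean of both ages, beside -0.03, -0.004 and -0.02 over all genes. The results therefore describe single genes and their spread, and with 3 against 3 libraries the exact two-sided permutation test cannot go below p = 0.1.

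**Figure D2:**
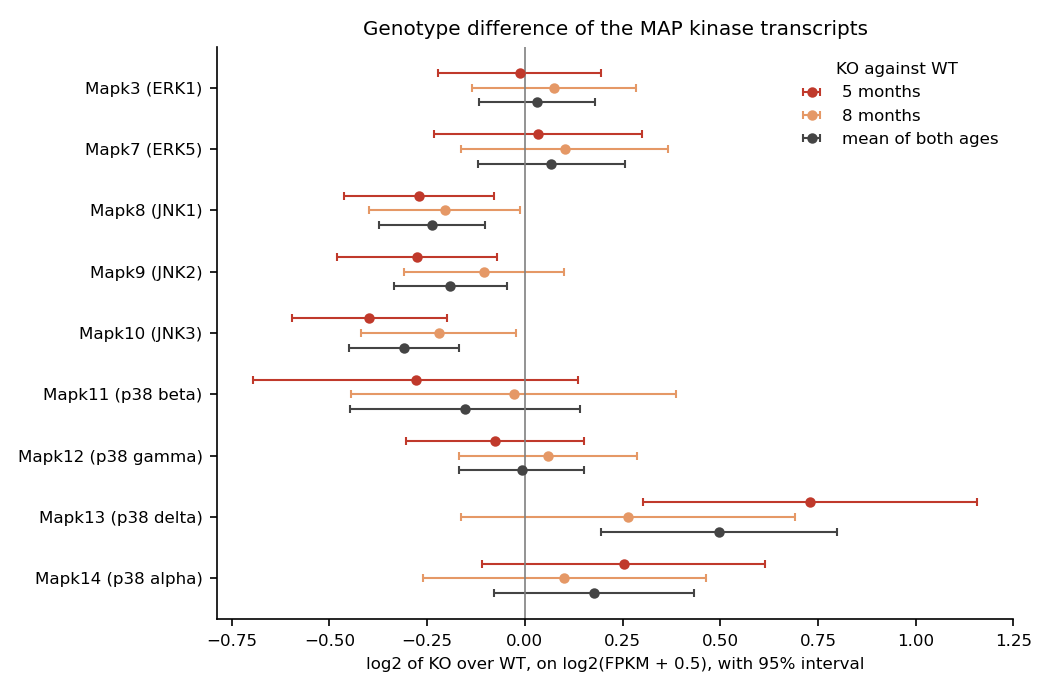
Log2 of KO over WT (horizontal axis) for the 9 genes at 5 months, at 8 months and for the mean of both ages, as points with unadjusted 95% intervals from the limma fit. The intervals of Mapk8 and Mapk10 lie below 0 in all 3 comparisons, and that of Mapk13 lies above 0 at 5 months (0.30 to 1.16) and for the mean of both ages (0.19 to 0.80).

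The ERK genes showed no genotype difference beyond the spread of the libraries. Mapk3 measured 162, 143 and 175 FPKM in KO and 161, 165 and 157 FPKM in WT at 5 months, and 205, 216 and 170.2 FPKM in KO and 184, 184 and 191 FPKM in WT at 8 months. The KO libraries lay on both sides of the WT libraries at each age, and the 95% interval of the change ran from -0.22 to 0.20 at 5 months and from -0.14 to 0.28 at 8 months. Mapk7, whose ERK5 protein has a long C-terminal tail that can activate transcription, measured 9.85, 7.59 and 9.24 FPKM in KO and 9.35, 7.96 and 8.62 FPKM in WT at 5 months. At 8 months it measured 10.99, 8.41 and 9.47 FPKM in KO and 8.14, 9.19 and 9.37 FPKM in WT. Groups overlapped at both ages, and the interval for the mean of both ages was -0.12 to 0.26.

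The 3 JNK genes were the members that were lower in KO at an unadjusted p under 0.05. Their summed level was 52.8 ± 3.52 FPKM in KO and 66.4 ± 5.79 FPKM in WT at 5 months (mean ± SD, n = 3 each), and 53.3 ± 3.14 FPKM in KO and 59.7 ± 2.63 FPKM in WT at 8 months. Every KO library (49.4 to 56.5 FPKM) was below every WT library (60.1 to 71.5 FPKM) at 5 months, and at 8 months the KO libraries (50.3 to 56.5 FPKM) were likewise below the WT libraries (56.9 to 62.1 FPKM). Of single genes, 13.8% were separated in this direction at 5 months, 6.19% at 8 months and 2.01% at both ages. No such share was computed for sums of genes.

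Mapk10 encodes JNK3, the isoform found mainly in neurons. It measured 18.2, 17.5 and 19.9 FPKM in KO and 24.6, 25.5 and 23.6 FPKM in WT at 5 months. The groups did not overlap, which held in this direction for 13.8% of all genes, and the change was -0.40 ± 0.09 (limma, p = 0.0012, adjusted p = 0.147, exact permutation p = 0.1). By its p it ranked 128 among the 16277 genes. At 8 months Mapk10 measured 16.7, 18.5 and 21.4 FPKM in KO and 21.5, 21.0 and 23.4 FPKM in WT. Here F27 of the KO group lay within the WT range, and the change was -0.22 ± 0.09 (limma, adjusted p = 0.963). Without E7 and F5 it was -0.14 ± 0.09 (limma, adjusted p = 0.884), no longer at an unadjusted p under 0.05, and without F27 it was -0.31. For the mean of both ages it was -0.31 ± 0.06 (p = 0.0006, adjusted p = 0.116 in limma; exact permutation p within age 0.01, where 0.005 is the smallest possible).

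Mapk8 encodes JNK1, which is made in most tissues. It measured 7.67, 7.67 and 8.54 FPKM in KO and 10.3, 10.1 and 8.80 FPKM in WT at 5 months, with no overlap and a change of -0.27 ± 0.09 (limma, adjusted p = 0.198). At 8 months it measured 7.203, 7.12 and 7.59 FPKM in KO and 9.18, 7.67 and 8.70 FPKM in WT. The groups again did not overlap, as for 6.19% of all genes in this direction, although F27 (7.59) and F10 (7.67) were close, and the change was -0.21 ± 0.09 (limma, adjusted p = 0.963). Mapk8 was the sole member whose KO libraries were below the WT libraries at both ages, which held for 2.01% of all genes. Its change for the mean of both ages was -0.24 ± 0.06 (limma, adjusted p = 0.154), with the smallest exact permutation p that the design allows, 0.005.

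Mapk9 encodes JNK2, the most abundant JNK transcript here. It measured 26.7, 24.3 and 28.04 FPKM in KO and 36.6, 32.1 and 27.7 FPKM in WT at 5 months. F19 of the KO group was just above E4 of the WT group, and the change was -0.28 ± 0.09 (limma, adjusted p = 0.203), or -0.18 without E1. Mapk9 measured 26.4, 27.3 and 27.6 FPKM in KO and 29.4, 28.2 and 30.0 FPKM in WT at 8 months, with no overlap but a change of only -0.10 ± 0.09 (limma, adjusted p = 0.978). The mean of both ages was -0.19 ± 0.07 (limma, adjusted p = 0.226).

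The shares of the 3 genes in the summed JNK level varied within narrow limits. Mapk9 made up 46.1 to 52.5% of the sum over the 12 libraries, Mapk10 33.2 to 39.3% and Mapk8 13.4 to 15.5%. At 5 months the mean shares were 49.8, 35.1 and 15.1% in KO and 48.2, 37.1 and 14.6% in WT for Mapk9, Mapk10 and Mapk8 in that order, and at 8 months they were 50.9, 35.3 and 13.7% in KO and 48.9, 36.8 and 14.3% in WT.

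**Figure D3:**
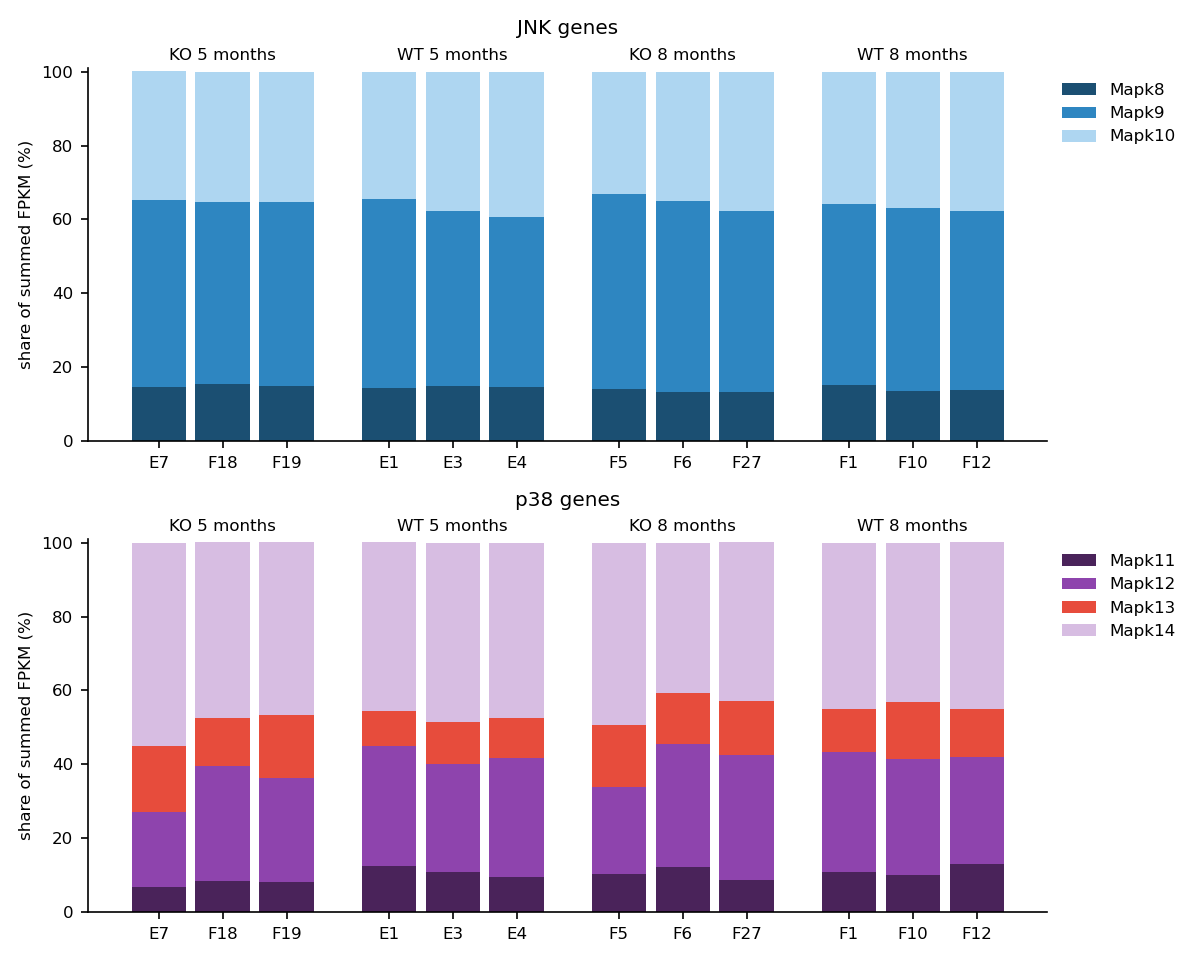
Share of each gene in the summed FPKM of its subfamily (vertical axis, percent) in each of the 12 libraries (horizontal axis, by group), for the JNK genes above and the p38 genes below. JNK shares are nearly level across libraries, whereas Mapk13 takes 13.2 to 17.8% of the p38 sum in KO and 9.36 to 11.6% in WT at 5 months.

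Transcripts of neurons were lower in KO alongside the JNK genes at 5 months, whereas the summed markers of brain glia overlapped between genotypes. The 10 neuron markers, none of them at 0, summed to 1377, 1291 and 1534 FPKM in KO and 1792, 1699 and 1708 FPKM in WT at 5 months. All 10 were lower in KO, 4 of them at an unadjusted p under 0.05 in limma, beside 9.92% of all genes. At 8 months the sums overlapped, at 1706, 1827 and 1557 FPKM in KO and 1651, 1807 and 1926 FPKM in WT, and 8 of the 10 were lower with 0 at an unadjusted p under 0.05 in limma. F5 and F6 held less Mapk10 (16.7 and 18.5 FPKM) than any WT library of 8 months at neuron sums within the WT range, and F27 held 21.4 FPKM at a sum below it. The 7 markers of brain glia and brainstem summed to 88.1, 74.96 and 116 FPKM in KO and 144, 94.6 and 171 FPKM in WT at 5 months. Of the 6 tested, 5 were below 0 at each age, with 2 at an unadjusted p under 0.05 and a median of -0.49 at 5 months, and 0 and -0.14 at 8 months in limma. At 5 months all 4 peripheral myelin markers were also below 0 (median -0.10), as were 9 of 12 cochlear cell markers (median -0.07), the other 3 being above. Of these 2 lists, 0 markers were lower at an unadjusted p under 0.05. The part of neuronal or glial RNA in the JNK difference was not tested, and in whole cochleae fewer cells of a type and less RNA per cell cannot be told apart.

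Among the p38 genes, only Mapk13 had an unadjusted p under 0.05 in limma between genotypes, at 5 months and for the mean of both ages. Mapk11, Mapk12 and Mapk14 did not differ beyond their spread. Mapk13 encodes p38δ, which is expressed in epithelia and in neutrophils and macrophages. It measured 14.2, 8.00 and 11.3 FPKM in KO and 6.10, 6.82 and 6.20 FPKM in WT at 5 months. Every KO library was above every WT library, as for 11.3% of all genes, and the change of 0.73 ± 0.19 was the largest of any member (limma, p = 0.0034, adjusted p = 0.168, exact permutation p = 0.1). At 8 months Mapk13 measured 12.96, 9.70 and 9.16 FPKM in KO and 7.48, 9.65 and 8.95 FPKM in WT. F27 then lay within the WT range, and the change was 0.26 with a 95% interval of -0.16 to 0.69. The mean of both ages was 0.50 ± 0.14 (limma, adjusted p = 0.170).

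Mapk14 encodes p38α, the broadly expressed isoform that drives much of the cytokine response. It measured 43.9, 28.7 and 31.1 FPKM in KO and 29.8, 28.6 and 27.1 FPKM in WT at 5 months, and 38.3, 28.6 and 26.96 FPKM in KO and 28.6, 26.9 and 31.0 FPKM in WT at 8 months. At each age 1 KO library, E7 or F5, stood far above the rest, and the other 10 libraries held 26.9 to 31.1 FPKM. The change was 0.25 (95% interval -0.11 to 0.61) at 5 months and 0.10 (-0.26 to 0.46) at 8 months.

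E7 and F5 were also the libraries with the most neutrophil RNA and the most Mapk13. Other blood cell markers were high there too. E7 and F5 ranked 2 and 1 by the macrophage sum (343 and 380 FPKM), 2 and 3 by red cell and 1 and 4 by B cell markers. At 5 months 6 of 7 B cell, 3 of 5 red cell and 1 of 7 macrophage markers were higher in KO at an unadjusted p under 0.05 in limma. All 11 neutrophil markers were higher in KO at an unadjusted p under 0.05 at 5 months, with a median change of 4.89, and none was at 0 throughout; at 8 months all 11 were above 0 with 0 at that p in limma. Without E7 and F5 the change of Mapk13 was 0.55 ± 0.15 at 5 months (limma, adjusted p = 0.239) and 0.12 ± 0.15 at 8 months, and that of Mapk14 was 0.07 ± 0.08 and -0.05 ± 0.08. The 5 libraries with neutrophil sums of 612 to 923 FPKM (E1, E3, F10, F6 and F1) held 6.10 to 9.70 FPKM of Mapk13. E4, with the lowest neutrophil sum of 70.2 FPKM, held 6.20 FPKM. F27 with 1262 FPKM held 9.16 FPKM, F18 with 4094 FPKM held 8.00 FPKM and F12 with 4576 FPKM held 8.95 FPKM. F19 with 7258 FPKM held 11.3 FPKM, and F5 and E7, with the highest sums, held 12.96 and 14.2 FPKM. The part of neutrophil, macrophage, B cell or red cell RNA in either difference was not tested beyond leaving out E7 and F5. Of the 220 genes tested within 5 Mb of Dusp1, 30 (13.6%) were higher and 29 lower in KO at 5 months at an unadjusted p under 0.05, beside 8.23 and 9.92% of all genes. At 8 months 15 (6.82%) were higher and 24 lower, beside 2.21 and 2.97%, and for the mean of both ages 31 (14.1%) were higher and 33 lower, beside 7.75 and 9.66%. Past the adjusted threshold in limma were 1 of the 220 at 5 months, 0 at 8 months and 7 for the mean of both ages, out of 11, 2 and 13 among all genes.

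**Figure D4:**
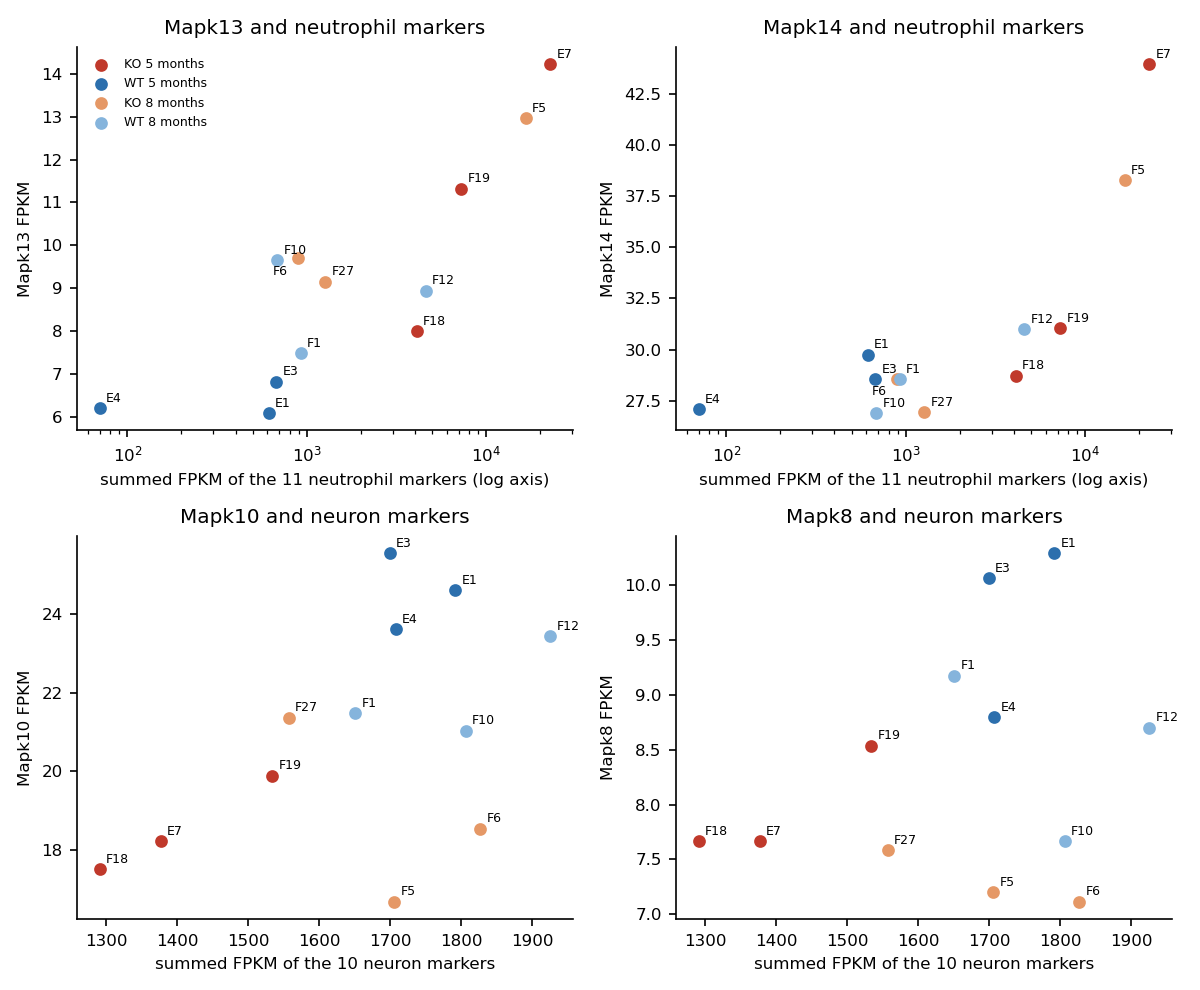
FPKM of Mapk13 and Mapk14 (vertical axes, not from 0) against the summed FPKM of 11 neutrophil markers (horizontal log axes), and of Mapk10 and Mapk8 against the summed FPKM of 10 neuron markers (horizontal linear axes), with 1 labelled point per library. E7 and F5 stand highest for Mapk13, Mapk14 and the neutrophil sum, and the 3 KO libraries of 5 months have the 3 lowest neuron sums.

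Mapk12 encodes p38γ, best known from skeletal muscle. It measured 16.2, 18.8 and 18.8 FPKM in KO and 21.1, 17.3 and 18.5 FPKM in WT at 5 months, and 18.3, 23.3 and 21.3 FPKM in KO and 20.5, 19.6 and 19.9 FPKM in WT at 8 months. Groups overlapped at both ages, with a 95% interval of -0.17 to 0.15 for the mean of both ages. The 10 skeletal muscle markers summed to 11.2 FPKM in E7, the library lowest in Mapk12 too (16.2 FPKM). They summed to 1311 FPKM in E3, the most of any library, which held 17.3 FPKM of Mapk12. F6, the library highest in Mapk12 (23.3 FPKM), had a muscle sum of 30.1 FPKM. The part of muscle RNA in the level of Mapk12 was not tested. Mapk11, for p38β, measured 5.56, 5.09 and 5.40 FPKM in KO and 8.20, 6.39 and 5.44 FPKM in WT at 5 months, and 8.00, 8.58 and 5.43 FPKM in KO and 6.99, 6.37 and 8.92 FPKM in WT at 8 months. The 5-month KO libraries were close to each other whereas the other groups were spread, and the interval for the mean of both ages was -0.45 to 0.14.

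The p38 genes differed in their shares of the p38 sum. Mapk13 took 16 ± 2.47% in KO and 10.6 ± 1.12% in WT at 5 months, and 15 ± 1.5% in KO and 13.4 ± 1.87% in WT at 8 months (mean ± SD, n = 3 each). Mapk14 held the largest share in every library, from 40.7% in F6 to 55.0% in E7. Mapk11 took 7.82 ± 0.758% in KO and 11 ± 1.54% in WT at 5 months, and 10.4 ± 1.79% in KO and 11.4 ± 1.43% in WT at 8 months.

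Whether the genotype difference itself differed between the ages was tested as a change of that difference. None of the 9 genes had an unadjusted p under 0.05 for it in limma, where 3.02% of all genes had a higher and 1.66% a lower difference at 8 months by that rule, and 0.00614% passed the adjusted threshold. The smallest p was that of Mapk13, whose difference was lower by 0.47 on the log2 scale at 8 months, with a 95% interval of -1.07 to 0.14. The interval reached 0.34 for Mapk8, 0.46 for Mapk9 and 0.46 for Mapk10, so a loss of the whole 5-month difference by 8 months lay within the interval of each JNK gene.

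With age, Mapk3 was the member with a higher level at an unadjusted p under 0.05 in both genotypes. In KO it averaged 159.9 ± 15.7 FPKM at 5 months and 197 ± 23.9 FPKM at 8 months, a log2 change of 8 over 5 months of 0.30 ± 0.09 (limma, adjusted p = 0.321), with F27 of 8 months (170.2 FPKM) below F19 of 5 months (175 FPKM). In WT it averaged 161 ± 3.86 FPKM at 5 months and 186 ± 4.13 FPKM at 8 months, with no overlap between the ages and a change of 0.21 ± 0.09 (limma, adjusted p = 0.631), which was 0.10 with quantile normalization (limma, adjusted p = 0.744). In KO this was the 1 member at an unadjusted p under 0.05, where 8.83% of all genes were higher and 3.75% lower with age, and 0% passed the adjusted threshold. In WT it was again the 1 member, where 4.28% were higher and 3.54% lower, and 0.0123% passed. In WT the code letter changes from E to F together with age, so letter and age cannot be told apart.

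Some other members did not overlap between ages although their p missed 0.05. In KO, Mapk8 was lower at 8 months in every library (-0.12 ± 0.09, adjusted p = 0.580 in limma), as were 4.61% of all genes, and its change was -0.067 without F19. In WT, Mapk13 was higher at 8 months in every library (0.41 ± 0.19, adjusted p = 0.632 in limma), as was Mapk3, in a direction taken by 10.4% of all genes. Mapk10 was lower at 8 months in every WT library (-0.16 ± 0.09, adjusted p = 0.639 in limma), as were 8.81% of all genes.

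The genes above and below the MAP kinases were read in 6 lists, and none of these genes passed an adjusted p of 0.05 in limma in any comparison. Counts of the lists are to be read beside the shares of all genes at an unadjusted p under 0.05, which were 8.23% higher and 9.92% lower at 5 months, and 2.21% higher and 2.97% lower at 8 months. Among the 7 MAP kinase kinases, 1 was higher and 2 were lower in KO at 5 months at an unadjusted p under 0.05. Map2k7, which activates JNK alone, measured 28.6, 27.5 and 32.2 FPKM in KO and 36.0, 33.1 and 34.3 FPKM in WT (change -0.23 ± 0.07, adjusted p = 0.197 in limma). Map2k4, which activates JNK and p38, was lower by a change of -0.15 ± 0.07 (adjusted p = 0.269 in limma). Map2k3, an activator of p38, measured 28.2, 24.9 and 21.9 FPKM in KO and 17.3, 20.9 and 19.98 FPKM in WT (change 0.36 ± 0.13, adjusted p = 0.223 in limma). At 8 months 0 of the 7 reached that p.

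Of 18 MAP kinase kinase kinases, 3 were higher and 1 was lower in KO at 5 months at an unadjusted p under 0.05, and 0 and 1 at 8 months. Without E7 and F5, 1 was higher at 5 months, and at 8 months Map3k6 (higher) and Map3k1 (lower) also reached that p. Map3k7, which encodes the cytokine-activated kinase TAK1, was the gene that was lower at both ages. It measured 16.9, 16.5 and 17.8 FPKM in KO and 19.7, 21.9 and 19.7 FPKM in WT at 5 months, and 16.2, 13.6 and 15.8 FPKM in KO and 19.2, 18.2 and 18.6 FPKM in WT at 8 months. The groups did not overlap at either age, which held in this direction for 2.01% of all genes. The change for the mean of both ages was -0.27 ± 0.05 (limma, adjusted p = 0.1002). Map3k6 and Map3k15 were higher at 5 months (0.51 ± 0.16 and 0.63 ± 0.24, adjusted p = 0.201 and 0.229 in limma). Map3k15 was a gene of low level, with 0.914 to 1.76 FPKM in KO and 0.540 to 0.740 FPKM in WT. The third, Map3k11, had a change of 0.24 ± 0.09 and is named, as are Rps6ka4 and Dusp7 below, only to complete its count, after its value was seen.

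The list of 10 scaffolds and adaptors holds JNK scaffolds (Mapk8ip1, Mapk8ip2, Mapk8ip3 and Spag9), ERK scaffolds (Ksr1, Ksr2 and Lamtor3) and adaptors of TAK1 (Tab1, Tab2 and Tab3). Of these, 0 were higher and 2 were lower in KO at 5 months at an unadjusted p under 0.05, and 8 of 10 had a change below 0, with a median of -0.12 beside -0.03 over all genes. Mapk8ip1, the JNK-interacting protein JIP1, measured 59.0, 54.2 and 64.9 FPKM in KO and 75.8, 63.3 and 73.6 FPKM in WT at 5 months (change -0.25 ± 0.10, adjusted p = 0.230 in limma). Mapk8ip2, for JIP2, had a change of -0.25 ± 0.10 at 5 months and -0.26 ± 0.10 at 8 months (adjusted p = 0.250 and 0.963 in limma). Without E7 and F5 the count at 5 months was 0, with changes of -0.25 ± 0.12 and -0.24 ± 0.13 for the same 2 genes.

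Some kinases that act below p38 and ERK had higher levels in KO at 5 months. Of 11 substrate kinases, 4 had an unadjusted p under 0.05, each of them higher, beside 8.23% of all genes, and the median change of the list was 0.14. Mapkapk2 (MK2), the main effector of p38α, measured 50.9, 49.7 and 41.0 FPKM in KO and 31.6, 37.1 and 36.8 FPKM in WT (change 0.42 ± 0.11, adjusted p = 0.167 in limma). Its close relative Mapkapk3 measured 21.0, 15.8 and 13.6 FPKM in KO and 9.38, 11.9 and 12.1 FPKM in WT (0.56 ± 0.19, adjusted p = 0.204 in limma). Mknk2, an ERK and p38 target that phosphorylates the translation factor eIF4E, had a change of 0.51 ± 0.15 (adjusted p = 0.191 in limma). The fourth gene was Rps6ka4, with a change of 0.14 ± 0.05. E7, the library with the most neutrophil RNA, was also the highest for Mapkapk2 and Mapkapk3. Without E7 and F5 the changes at 5 months were 0.36 ± 0.11, 0.39 ± 0.12 and 0.53 ± 0.19 for Mapkapk2, Mapkapk3 and Mknk2, and 3 genes had an unadjusted p under 0.05, since Rps6ka4 (0.14 ± 0.06) no longer did. At 8 months 0 of the 11 were higher and 1, Rps6ka3 (RSK2, a kinase below ERK), was lower (-0.26 ± 0.09, adjusted p = 0.913 in limma).

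The 12 substrate transcription factors, Jun, Fos, Atf2, Elk1 and Mef2c among them, had 0 genes at an unadjusted p under 0.05 at either age, with changes of -0.70 to 0.14 at 5 months and -0.26 to 0.25 at 8 months. Of 9 MAP kinase phosphatases tested, 4 were higher and 0 lower at 5 months at that p: Dusp1 (0.71 ± 0.23), Dusp2, an inducible phosphatase of leukocytes (1.29 ± 0.39), Dusp6, which is specific for ERK (0.27 ± 0.10), and Dusp7 (0.19 ± 0.08). At 8 months Dusp1 was the 1 gene of the list at that p (0.62 ± 0.23, adjusted p = 0.939 in limma). Dusp2 was a gene of low level, with 1.64 to 4.13 FPKM in KO and 0.664 to 0.946 FPKM in WT at 5 months. For Dusp1, the targeted gene, FPKM do not show whether a transcript carries the disrupted allele. Without E7 and F5, Dusp7 (0.20 ± 0.10) no longer reached that p at 5 months and Dusp4 (0.92 ± 0.38, higher) did. Dusp4 is named after its value was seen.

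**Figure D5:**
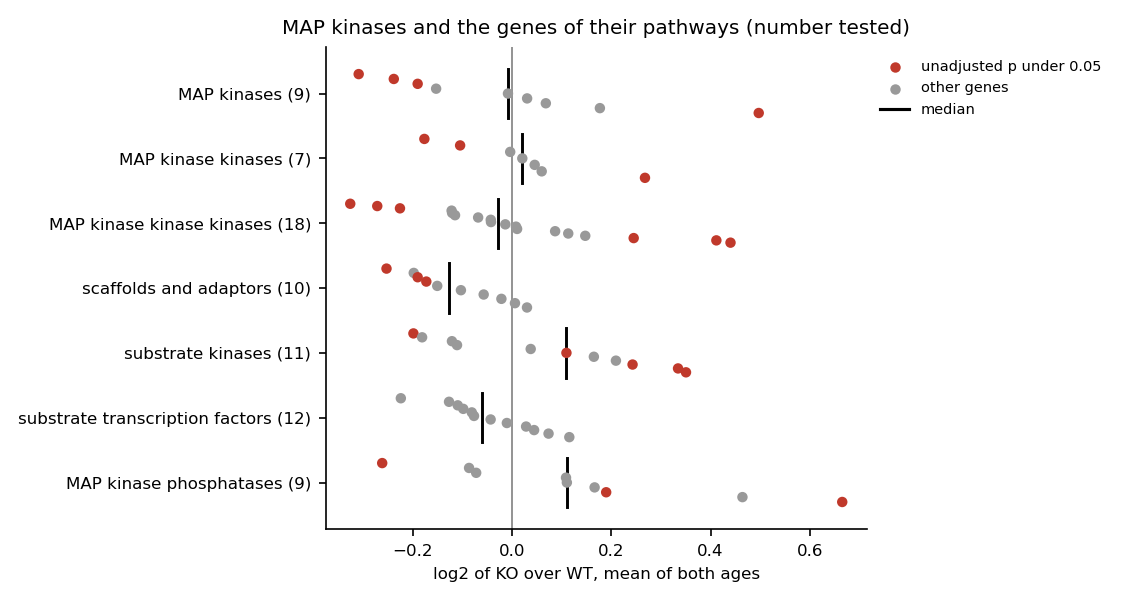
Log2 of KO over WT for the mean of both ages (horizontal axis) of the 9 MAP kinase genes and of 6 lists of pathway genes (rows, with the number tested), 1 point per gene, with genes at an unadjusted p under 0.05 in red and the list median as a black line. The medians run from -0.13 for scaffolds and adaptors to 0.11 for substrate kinases and for phosphatases, and none of the genes passed the adjusted threshold.

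The lists were also compared between ages, as log2 of 8 over 5 months. In KO, 2 MAP kinase kinase kinases, 1 substrate kinase, 2 transcription factors and 1 phosphatase were lower at 8 months at an unadjusted p under 0.05 and 0 genes of the lists were higher, beside 3.75% of all genes lower and 8.83% higher. These were Taok1 (-0.31 ± 0.10), Map3k2 (-0.35 ± 0.12), Rps6ka3 (-0.27 ± 0.09), Elk4 (-0.73 ± 0.21), Atf7 (-0.48 ± 0.16) and Dusp2 (-1.16 ± 0.39), with adjusted p of 0.302 to 0.339 in limma. All 9 phosphatases had a change below 0 in KO (median -0.23), and 5 of the 9 in WT. In WT, 4 transcription factors, 1 MAP kinase kinase kinase and 1 scaffold were lower and 1 substrate kinase was higher, beside 3.54% of all genes lower and 4.28% higher. The transcription factors were Atf7 (-0.51 ± 0.16), a relative of Atf2, Mef2c (-0.32 ± 0.13), Elk1 (-0.34 ± 0.14) and Fos (-1.33 ± 0.55), the last named only to complete the count, after its value was seen. The others were Map3k2 (-0.30 ± 0.12), Spag9 (-0.24 ± 0.09) and Rps6ka4 (0.16 ± 0.05), each with an adjusted p of 0.631 in limma.

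The genes whose levels followed each member most closely over the 12 libraries were found by Pearson correlation of log2(FPKM + 0.5) among 15220 genes that averaged 1 FPKM or more. This is a ranking over libraries that share groups, without a test. Closest to Mapk3 were Lmo1, Sncg and Tppp3 (r = 0.95, 0.95 and 0.95). Closest to Mapk7 were Mns1, Ccdc77 and Smc1a (0.92, 0.92 and 0.90). For the JNK genes the leading matches were Ubtd2, Ept1 and Fsd1l for Mapk8 (0.97, 0.95 and 0.95), 4933411K20Rik and Runx1t1 for Mapk9 (0.96 and 0.95), and Zfyve9, Slc25a12 and Vsnl1 for Mapk10 (0.94, 0.94 and 0.94). Vsnl1 encodes a neuronal calcium sensor. For the p38 genes they were Fxyd7, Tmem255a and Stmn2 for Mapk11 (0.96, 0.95 and 0.94), Nprl2, Fam120aos and Gpr137 for Mapk12 (0.91, 0.91 and 0.90), and Clic1, Susd3 and Pabpc1 for Mapk13 (0.97, 0.97 and 0.96). Stmn2 is among the neuron markers used above. After the group means were taken out, r was 0.92 for Stmn2 with Mapk11 and 0.74 for Vsnl1 with Mapk10. Mapk14 was followed most closely by Hmga2-ps1, Fyb and Slc17a9 (0.97, 0.97 and 0.97), of which Fyb encodes an adaptor of blood cells. Because E7 and F5 stood far above the rest for Mapk14, its r can rest largely on them, and r without them was not computed.

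The 3 JNK genes followed each other with r of 0.80 to 0.84 over the 12 libraries, and with 0.46 to 0.74 after the group means were taken out. Mapk13 and Mapk14, the neighbours on chromosome 17, had r of 0.74, or 0.80 after the group means were taken out. Both genes were highest in E7 (14.2 and 43.9 FPKM) and F5 (12.96 and 38.3 FPKM), and r without these libraries was not computed. Mapk11 and Mapk12, the neighbours on chromosome 15, had r of 0.48, or 0.19 without the group means. Mapk13 ran opposite to Mapk10 and Mapk8 over the 12 libraries (r = -0.75 and -0.72) but hardly so after the group means were taken out (-0.18 and -0.19).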

How the data were processed

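RNA of 12 cochlear libraries was read as polyA+, stranded, single-end sequence. Per the labels and the submitters' processing notes, the authors aligned reads to mm9 with TopHat2 2.0.10, Bowtie 1.0.0 and SAMtools 0.1.19 and estimated FPKM per gene with Cufflinks 2.2.1. The deposited FPKM table held many values with a misplaced decimal point, which was restored from the group FPKM of the authors' comparison files, within a relative tolerance of 2e-05, for 23949 of 23951 genes, which changed 55.17% of the values. The fold changes, p and q of those files and the authors' gene set enrichment reports were not used.

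The 16277 genes that averaged 0.5 FPKM or more were tested on log2(FPKM + 0.5) with limma 3.58.1 (R 4.3.3, variance trend, 1 fit of the 4 groups), with Benjamini-Hochberg adjustment and a threshold of 0.05. Cuffdiff, used by the authors, needs reads. Single genes were also given an exact two-sided permutation test. The fit was tested on simulated data. Fold changes on the log2(FPKM + 0.5) scale understate those of low genes. Absolute depth is unknown, and so is counting error. Python 3.11.15, NumPy 2.4.6, pandas 2.3.3 and Matplotlib 3.10.9 were used for descriptions and figures, and sequences came from GENCODE vM1 transcripts and the NCBIM37 genome.

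The 9 members, the pathway lists and the marker lists were chosen with earlier results of these data known. A member's change is printed where its unadjusted p was under 0.05 or its groups did not overlap, and otherwise its interval or range. Of each pathway list, the 3 genes with the smallest unadjusted p under 0.05 are named. Alternatives were other pseudocounts, filters, scalings and variance models, the 2 groups alone, covariates for code letter and Xist, and leaving out each library. Leaving out E7 and F5 together was chosen after seeing the data. For each member the 3 genes with the most similar levels were sought, and 1 of those of Mapk9 is not reported here.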

Additional observations from a re-analysis of the deposited data

How the results depend on the processing

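The number of members past an adjusted p of 0.05 in limma was 0 in all 6 comparisons and stayed 0 under each of 23 alternatives (22 for the mean of both ages and for the change between ages). Of 364 alternative values of the 16 printed member changes, 0 reversed direction and 0 passed that threshold. The lowest adjusted p was 0.0532 in limma, for Mapk10 in the mean of both ages. The 16 changes were picked in these same data by their p or by groups without overlap. Where groups do not overlap, leaving out 1 library cannot reverse the direction, so part of this count was fixed in advance. The number of members at an unadjusted p under 0.05 was 4 at 5 months (3 to 4 under the alternatives) and 4 for the mean of both ages under every alternative. At 8 months it was 2, and it was 1 with quantile scaling, 0 with only the 2 groups, 1 with Xist as a covariate, 0 without E7 and F5, and 0 to 2 when 1 library was left out. For the change between ages it was 0, and it was 2 with the code letter as a covariate and 0 to 2 when 1 library was left out. For age in KO it was 1, and it was 2 with quantile scaling, 2 with Xist as a covariate and 1 to 3 when 1 library was left out. For age in WT it was 1, and it was 2 with median ratio scaling, 0 without the variance trend, 3 with only the 2 groups, 2 with the code letter as a covariate and 0 to 2 when 1 library was left out. The causes of these shifts were not tested. The change of Mapk13 at 5 months ran from 0.55 without E7 to 0.94 without F18 and was 1.10 with the code letter as a covariate, a fit that sets E7 alone, the only KO library of letter E and the richest in neutrophil RNA, against the 3 WT libraries. With that covariate the change of Mapk13 with age in WT was 0.97, against 0.41 without it, and also rests on E7. The change of Mapk9 at 5 months ran from -0.38 to -0.18 when 1 library was left out. Without E7 and F5 at 5 months, 1 MAP kinase kinase kinase was higher at an unadjusted p under 0.05, against 3 with them, and 0 scaffolds were lower, against 2 with them. At 8 months, leaving them out added Map3k6 (0.41 ± 0.15) as higher and Map3k1 (-0.28 ± 0.12) as lower at that p. The transcription factor Ddit3 (0.24 ± 0.10) was then higher too, and adjusted p were 0.873 to 0.880 in limma. Map3k1 and Ddit3 are named after their values were seen. No paired analysis was possible because the groups share no replicate numbers or codes.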
